A study of Mus musculus with 10 samples.

Results

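The 31 genes described here make cholesterol and control its supply in the cell. They hold 20 enzymes (19 that build cholesterol from acetyl-CoA, and Ggps1 on a branch from that path), the transcription factor SREBP2 with 3 proteins that govern its release, 5 genes of sterol transport and receptor turnover, and 2 enzymes that esterify cholesterol. The rule that names the members uses the pathway and no measured value, although it was written with earlier results of these data known, and the genes were looked up by Ensembl identifier in both liver count tables, each of which lists 55487 genes. All 31 were found, all 31 are annotated as protein coding, and all 31 passed the filter on low counts in both tables.

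Messenger RNA was counted in regenerating liver of 8-week-old C57BL/6J mice, all of which had undergone partial hepatectomy (PHx), the surgical removal of most of the liver. In the diet experiment, 3 libraries came from livers of mice that ate a high-fat diet (HFD) during the 7 days up to PHx, and 3 from mice that stayed on regular chow, with both groups sampled 40 hours after surgery. In the inhibitor experiment, 4 libraries came from mice given SSO at 40 mg/kg and 4 from mice given its solvent (vehicle), each 1 day before PHx, with liver taken at 48 hours. SSO is not spelled out in the labels; the name is often used for sulfosuccinimidyl oleate, which blocks fatty acid uptake through CD36. The labels give 8 mice per group for the inhibitor experiment but each group had 4 columns, and nothing states which mice a column holds or whether livers were pooled. P-values there measure the spread between libraries, which may be technical. No sham-operated or unoperated liver is part of either table, so each comparison is between livers that were all regenerating.

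Library totals were 31912664 to 33928268 counts in HFD and 36658466 to 39910561 in chow libraries, and 27969989 to 30388236 in SSO and 25204205 to 29825633 in vehicle libraries. Levels are given as CPM, which are counts scaled by the TMM-adjusted library size. The 5 hepatocyte markers, Alb among them, summed to 57997.9 to 99782.3 CPM in every library. Mitochondrially encoded transcripts took 6.56% to 8.43% of counts in HFD, 7.46% to 9.96% in chow and 15.2% to 17.6% in SSO libraries, while the vehicle libraries spread between 4.99% and 22.5%. The mice of both experiments are labelled male. Ddx3y, a Y-linked gene, had 55.0 to 76.3 CPM in the diet libraries but 0 counts in all 8 inhibitor libraries, where Xist, the transcript of an inactive X chromosome, measured 698 to 1772 CPM. The transcripts of the inhibitor libraries thus went against the label. Any level set across the experiments differs in time after surgery, treatment and these transcripts together.

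Cholesterol is assembled from acetyl-CoA through mevalonate to farnesyl diphosphate, through squalene to lanosterol, and then through a long series of sterol intermediates. Most of these enzymes are transcribed under SREBP2, which is made as a membrane precursor, escorted from the endoplasmic reticulum by SCAP and retained there by INSIG proteins when sterols are plentiful. Insig1 is itself a target of SREBP2, which closes a feedback loop. The liver is a main site of cholesterol synthesis and of its conversion to bile acids, and regenerating hepatocytes need sterol for new membranes. SREBP2 binds sterol regulatory elements in the promoters of its targets, commonly beside boxes for the factors NF-Y and Sp1.

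Promoter windows of 300 bases, from 250 before to 50 after the annotated start, were available from RefSeq (GRCm38.p6) for 25 of the 31 members. Sqle, Soat2, Fdft1, Fdps, Npc1 and Stard4 had none in that table. The windows of 6 members are shown because their transcripts carry the main results: Hmgcs1, Mvd, Lss, Nsdhl and Insig1 differed between the diet and inhibitor effects, and Ebp, an enzyme of the same pathway, is set beside them as one whose transcript was not called in any comparison. Each is printed 5′ to 3′ on its gene's own strand, and they lie at chr13:119690101-119690400 for Hmgcs1 (plus strand), chr8:122443373-122443672 for Mvd (minus strand), chr10:76531355-76531654 for Lss (plus), chrX:72918271-72918570 for Nsdhl (plus), chr5:28071162-28071461 for Insig1 (plus) and chrX:8193463-8193762 for Ebp (minus). Capitals mark exact matches on either strand to TCACNCCAC, a sterol regulatory element, to CCAAT, the NF-Y box, and to GGGCGG, the Sp1 box. On the printed strand a reversed NF-Y box reads ATTGG and a reversed Sp1 box CCGCCC.
Hmgcs1: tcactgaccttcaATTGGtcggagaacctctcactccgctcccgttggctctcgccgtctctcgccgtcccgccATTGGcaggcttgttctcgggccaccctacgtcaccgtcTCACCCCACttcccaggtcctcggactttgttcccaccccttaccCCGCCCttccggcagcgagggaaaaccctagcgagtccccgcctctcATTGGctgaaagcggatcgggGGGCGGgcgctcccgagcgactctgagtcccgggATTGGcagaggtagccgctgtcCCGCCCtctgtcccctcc
Mvd: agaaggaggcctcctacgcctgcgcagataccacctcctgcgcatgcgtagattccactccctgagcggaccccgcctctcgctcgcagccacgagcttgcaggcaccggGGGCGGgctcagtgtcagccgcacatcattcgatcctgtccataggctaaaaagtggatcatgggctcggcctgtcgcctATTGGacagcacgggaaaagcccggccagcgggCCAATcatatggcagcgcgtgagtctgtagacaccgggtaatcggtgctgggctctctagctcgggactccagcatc
Lss: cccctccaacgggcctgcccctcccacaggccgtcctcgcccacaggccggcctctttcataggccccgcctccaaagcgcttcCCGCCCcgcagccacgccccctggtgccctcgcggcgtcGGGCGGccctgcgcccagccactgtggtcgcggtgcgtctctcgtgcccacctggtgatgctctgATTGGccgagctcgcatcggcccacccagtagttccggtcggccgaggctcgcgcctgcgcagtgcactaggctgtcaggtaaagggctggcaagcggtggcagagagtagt
Nsdhl: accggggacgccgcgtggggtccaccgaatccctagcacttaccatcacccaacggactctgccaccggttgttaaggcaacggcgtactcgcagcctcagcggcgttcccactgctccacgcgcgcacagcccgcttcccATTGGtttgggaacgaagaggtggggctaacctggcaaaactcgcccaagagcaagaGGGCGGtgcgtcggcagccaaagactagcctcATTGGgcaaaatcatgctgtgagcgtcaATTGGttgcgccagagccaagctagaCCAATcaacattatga
Insig1: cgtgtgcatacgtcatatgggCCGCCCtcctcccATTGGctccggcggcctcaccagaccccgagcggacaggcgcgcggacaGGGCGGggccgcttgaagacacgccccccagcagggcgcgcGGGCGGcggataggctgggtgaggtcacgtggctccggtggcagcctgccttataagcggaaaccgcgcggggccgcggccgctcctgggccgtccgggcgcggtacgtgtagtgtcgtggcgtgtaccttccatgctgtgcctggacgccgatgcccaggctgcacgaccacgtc
Ebp: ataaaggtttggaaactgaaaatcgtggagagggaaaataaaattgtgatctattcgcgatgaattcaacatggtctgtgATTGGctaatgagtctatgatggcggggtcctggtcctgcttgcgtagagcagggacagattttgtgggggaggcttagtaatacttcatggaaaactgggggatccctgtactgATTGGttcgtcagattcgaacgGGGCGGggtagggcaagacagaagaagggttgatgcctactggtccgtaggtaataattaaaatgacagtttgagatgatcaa

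The window of Hmgcs1 held 1 sterol regulatory element, which began 137 bases before the start, with 4 NF-Y boxes and 3 Sp1 boxes. Mvd held 2 NF-Y boxes, at 60 and 27 bases before the start, and 1 Sp1 box. The Lss window held 1 NF-Y box and 2 Sp1 boxes, and that of Insig1 likewise 1 NF-Y box with 3 Sp1 boxes. Nsdhl held 4 NF-Y boxes and 1 Sp1 box. Ebp, with 2 NF-Y boxes and 1 Sp1 box, had the same motif counts as Mvd. In none of these 6 windows did matches to different motifs overlap.

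Across the members, 23 of 25 (92.0%) held an NF-Y box, against 41.1% of 27025 genes with a window in the same table. Of the 11403 of these genes that were tested in at least 1 of the experiments, 42.4% held one. An Sp1 box was present in 23 of 25 (92.0%), against 38.2% of all genes and 64.4% of tested genes. The exact sterol regulatory element was found in 1 of 25 (4.0%), against 1.44% of all genes and 1.51% of tested genes. With 1 mismatch allowed in that element, a looser search chosen after the exact result was seen, 11 of 25 members (44.0%) matched, against 26.7% of all and 29.2% of tested genes. Where a gene had more than 1 window, a match in any of them was counted. These are descriptions of letters in short windows. A window without a match says nothing of binding elsewhere.

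**Figure D1:**
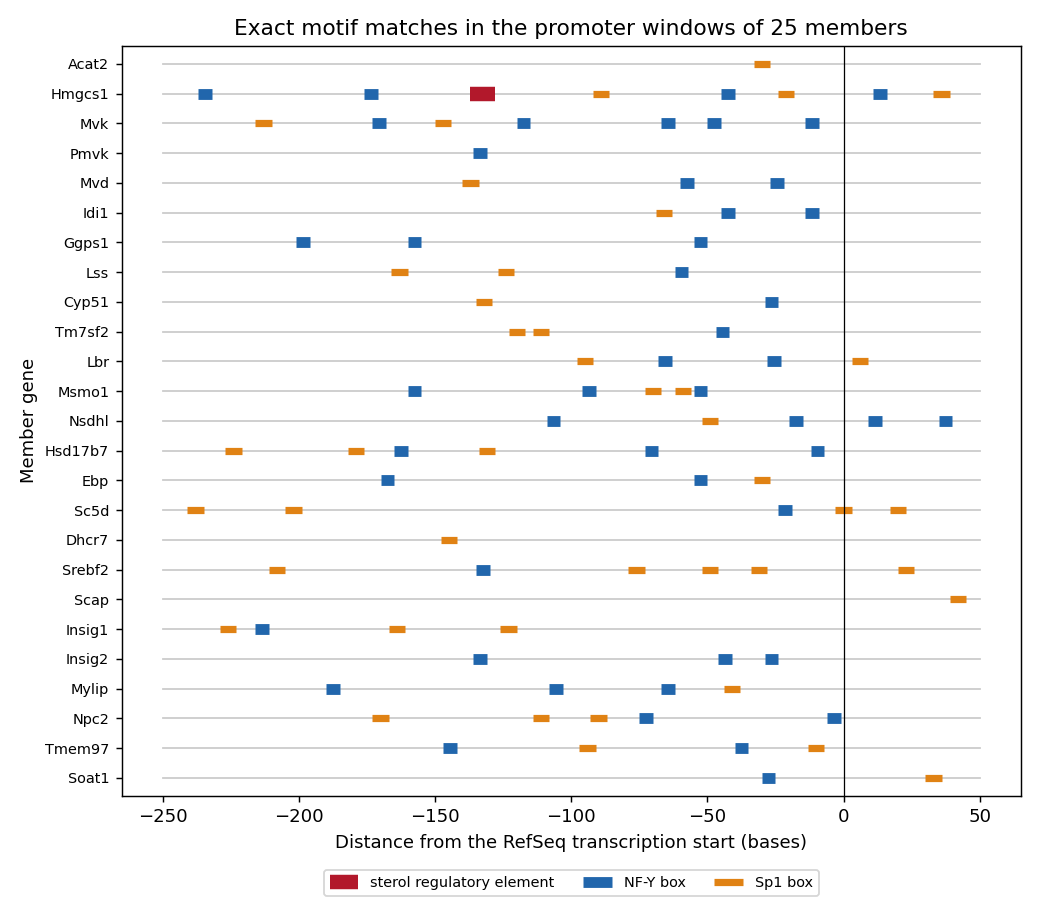
Positions of exact matches in the promoter window of each of the 25 members that had one, as distance in bases from the RefSeq transcription start (vertical line at 0). Red boxes are the sterol regulatory element, blue boxes the NF-Y box and orange boxes the Sp1 box, on either strand. Hmgcs1 is the row with a sterol regulatory element, 137 bases before the start; where a gene has several windows, the one nearest the 5′ end of the gene is drawn.

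The diet comparison addressed how a short lipid load before surgery affects gene expression in the regrowing liver. Sterol synthesis transcripts were lower in HFD than in chow livers for 18 of the 20 enzymes, against 52.7% of all tested genes below 0. The enzymes that were called all act between acetyl-CoA and lanosterol, and no test compared early with late enzymes. Of the 31 members, 8 fell and 0 rose by edgeR's quasi-likelihood test at an adjusted p under 0.05 (Benjamini-Hochberg over all 15589 genes tested), while 2.32% of all tested genes were called, 0.718% as lower and 1.6% as higher. The members that fell were Mvk, Pmvk, Mvd, Fdps, Fdft1, Sqle, Lss and Insig1. The median log2 fold change was -0.79 over the members and -0.02 over all tested genes, and 24 of the 31 members lay below 0. In 17 members every HFD library lay below every chow library, an order that 10.8% of all tested genes showed, and in 2 members, Lbr and Insig2, every HFD library lay above, as in 11.2% of all tested genes.

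All 7 enzymes between acetyl-CoA and farnesyl diphosphate were lower in every HFD library than in any chow library, and 4 of them were called. Mvd, which decarboxylates mevalonate diphosphate (ENSMUSG00000006517, chr8:122433601-122443422, minus strand, GRCm38), measured 8.63, 5.29 and 6.08 CPM in HFD livers, against 36.1, 24.1 and 28.0 CPM in chow livers. Its log2 fold change of -2.14 ± 0.23 (SE) was called with an edgeR adjusted p of 0.00228. Fdps, which joins isoprene units into farnesyl diphosphate (ENSMUSG00000059743, chr3:89093588-89101959, minus strand, GRCm38), was at 2.84, 1.48 and 1.57 CPM in HFD livers and at 20.8, 9.42 and 8.51 CPM in chow livers. Chow 1 was above the other chow livers, and HFD 1 above the other HFD livers, with a wide gap between the groups. The log2 fold change of Fdps was -2.71 ± 0.42 (edgeR adjusted p = 0.0173), the lowest among the members and 6.55-fold lower on the linear scale. Fdps shares 26.7% of its exon length with the predicted gene Gm43738 on the same strand, so its level is uncertain.

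The kinases that phosphorylate mevalonate fell with smaller fold changes. Mvk, the first of them (ENSMUSG00000041939, chr5:114444269-114460591, plus strand, GRCm38), had 20.6, 14.1 and 19.5 CPM in HFD livers and 37.3, 41.2 and 28.9 CPM in chow livers. Pmvk, which adds the next phosphate (ENSMUSG00000027952, chr3:89454541-89469013, plus strand, GRCm38), had 14.4, 12.0 and 14.3 CPM in HFD livers and 29.9, 25.6 and 21.3 CPM in chow livers. Neither gene's groups overlapped. The log2 fold change was -0.99 ± 0.19 for Mvk (edgeR adjusted p = 0.0315) and -0.92 ± 0.16 for Pmvk (edgeR adjusted p = 0.0231).

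The other 3 early enzymes, Hmgcs1, Idi1 and Acat2, did not pass the test. Hmgcs1, the cytosolic HMG-CoA synthase (ENSMUSG00000093930, chr13:119690379-119708260, plus strand, GRCm38), measured 110.4, 77.1 and 143 CPM in HFD livers and 539, 388 and 144 CPM in chow livers. The highest HFD value lay just below that of chow 3, while chow 1 and chow 2 lay far above. The log2 fold change of Hmgcs1 was -1.70 ± 0.49 with an edgeR adjusted p of 0.168. Idi1, which isomerises isopentenyl diphosphate, had 24.8, 13.8 and 23.5 CPM in HFD livers and 83.7, 95.8 and 29.3 CPM in chow livers (log2 fold change -1.75 ± 0.47, edgeR adjusted p = 0.145). Acat2, the cytosolic thiolase that condenses acetyl-CoA, had 38.3, 33.8 and 41.2 CPM in HFD livers and 78.3, 72.7 and 41.6 CPM in chow livers (log2 fold change -0.76 ± 0.23, edgeR adjusted p = 0.147). For both, chow 3 was again the chow library nearest to the HFD libraries. Ggps1, which leads farnesyl diphosphate away from sterols to geranylgeranyl diphosphate, had 8.52, 11.5 and 9.39 CPM in HFD livers and 11.0, 8.32 and 8.42 CPM in chow livers. Those groups overlapped, and the log2 fold change was 0.09 ± 0.19.

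All 3 enzymes from farnesyl diphosphate to lanosterol fell in HFD livers. Fdft1, squalene synthase (ENSMUSG00000021273, chr14:63145150-63179578, minus strand, GRCm38), measured 40.2, 35.0 and 44.0 CPM in HFD livers and 149.6, 177 and 78.9 CPM in chow livers, a log2 fold change of -1.77 ± 0.28 (edgeR adjusted p = 0.0186). It shares 18.3% of its exon length with Ctsb on the other strand, and the strand setting of the counting is not given in the sources used here, so the level is uncertain. Sqle, squalene epoxidase (ENSMUSG00000022351, chr15:59315077-59331192, plus strand, GRCm38), measured 28.1, 13.5 and 27.9 CPM in HFD livers and 99.6, 112 and 56.6 CPM in chow livers (log2 fold change -1.95 ± 0.36, edgeR adjusted p = 0.0439). HFD 2 and chow 3 were the lowest of their groups for both. Lss, which closes the ring to form lanosterol (ENSMUSG00000033105, chr10:76531588-76557138, plus strand, GRCm38), had the closest chow libraries of the 3, with 30.6, 21.2 and 24.8 CPM in HFD livers and 66.1, 69.1 and 54.7 CPM in chow livers. Its log2 fold change was -1.31 ± 0.17 (edgeR adjusted p = 0.00642).

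Of the 9 enzymes that turn lanosterol into cholesterol, 0 were called by edgeR, while 5 had an unadjusted p under 0.05 and 8 lay below 0, against 15.0% and 52.7% of all tested genes. DESeq2 called Msmo1, Nsdhl and Hsd17b7 of them. It called 15 members in all, and 926 of all 15589 tested genes, against 361 by edgeR. Msmo1, a sterol C4-methyl oxidase (ENSMUSG00000031604, chr8:64718139-64733792, minus strand, GRCm38), measured 52.0, 36.7 and 70.5 CPM in HFD livers and 271, 315 and 98.2 CPM in chow livers. Its groups did not overlap, and its log2 fold change of -2.10 ± 0.47 was about as large as that of Mvd, with an edgeR adjusted p of 0.0870. Nsdhl, which removes the C4 carboxyl group, measured 29.2, 20.6 and 40.8 CPM in HFD livers and 104, 77.8 and 29.9 CPM in chow livers, so that HFD 3 exceeded chow 3 (log2 fold change -1.23 ± 0.48, edgeR adjusted p = 0.301). Hsd17b7, a sterol 3-keto reductase, had 37.9, 30.3 and 50.1 CPM in HFD livers and 78.7, 110.1 and 56.6 CPM in chow livers (log2 fold change -1.05 ± 0.27, edgeR adjusted p = 0.0984).

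Among the remaining late enzymes, Cyp51, the lanosterol demethylase, had 88.9, 46.8 and 109 CPM in HFD livers and 199.6, 239 and 81.8 CPM in chow livers, and Tm7sf2, a sterol C14 reductase, 57.6, 52.8 and 53.4 CPM in HFD livers and 148, 83.9 and 59.4 CPM in chow livers. Their log2 fold changes were -1.09 ± 0.46 and -0.83 ± 0.30. Toward the end of the pathway the difference was smaller than its error for Ebp, a sterol isomerase, at -0.08 ± 0.17 (0.07 with scaling by library size alone) and for Sc5d, a sterol desaturase, at -0.13 ± 0.40. Dhcr7, which carries out the last reduction of one branch, was at -0.47 ± 0.33. Sc5d was nearly equal in the HFD livers, at 305, 307 and 312 CPM, and ranged widely in the chow livers, at 549, 306 and 156 CPM. Lbr, a nuclear envelope protein that also has sterol C14 reductase activity, went the other way, with 16.8, 18.0 and 16.0 CPM in HFD livers and 13.4, 12.8 and 7.71 CPM in chow livers (log2 fold change 0.58 ± 0.21, edgeR adjusted p = 0.231). Tm7sf2 and Lbr thus lay on opposite sides of 0 in the same livers, neither of them past the threshold.

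**Figure D2:**
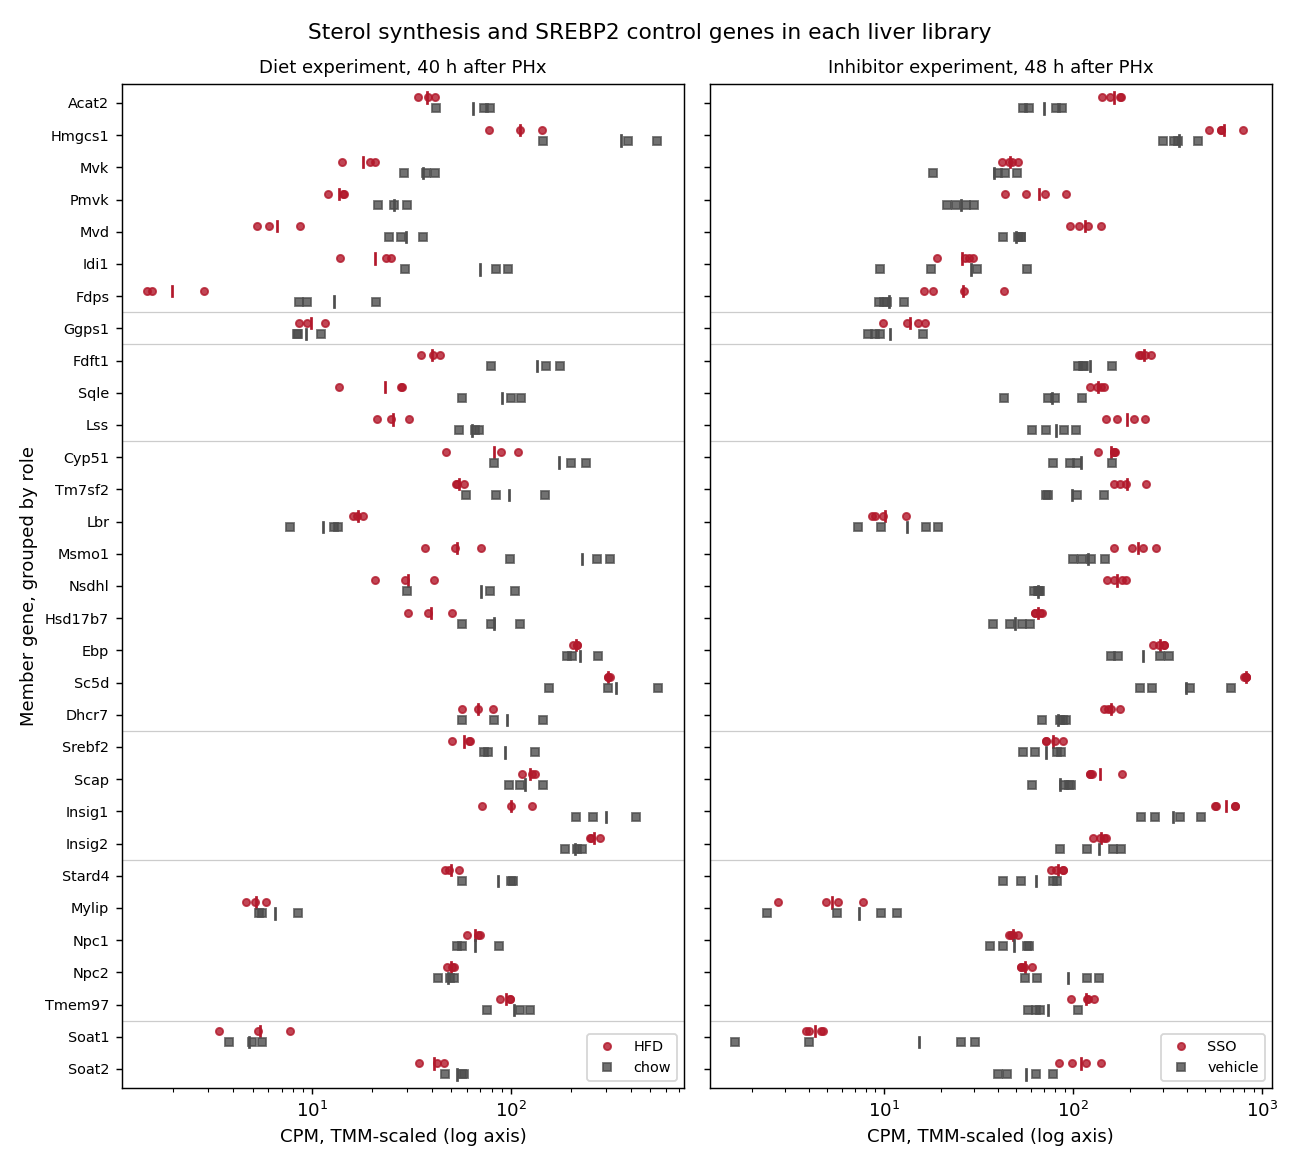
CPM of each member in every library on a log axis, HFD and chow at the left, SSO and vehicle at the right. Points are libraries, vertical ticks are group means, and grey lines separate the roles. The HFD points of Mvd lie between 5.29 and 8.63 CPM, left of all chow points, and the SSO points of Mvd between 95.7 and 139 CPM, right of all vehicle points.

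Among the 4 members that set SREBP2 release, Insig1 fell and the other 3 were not called by edgeR. Insig1, the retention protein that SREBP2 itself induces (ENSMUSG00000045294, chr5:28071363-28078662, plus strand, GRCm38), measured 128, 99.5 and 70.9 CPM in HFD livers and 425, 258 and 211 CPM in chow livers. Its log2 fold change was -1.58 ± 0.31 (edgeR adjusted p = 0.0408). Insig2, its relative that in liver is known for regulation by insulin rather than by SREBP2, had 248, 250.5 and 281 CPM in HFD livers and 213, 187 and 226 CPM in chow livers. There the HFD libraries were all higher, but the log2 fold change of 0.32 ± 0.14 did not pass the test (edgeR adjusted p = 0.345). Srebf2, the gene of SREBP2 itself, had 61.6, 50.4 and 62.1 CPM in HFD livers and 73.3, 131 and 76.0 CPM in chow livers, groups that did not overlap (log2 fold change -0.69 ± 0.23, edgeR adjusted p = 0.201). Scap, the escort protein, had 132, 113 and 127 CPM in HFD livers and 111, 144 and 97.6 CPM in chow livers (log2 fold change 0.07 ± 0.17).

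None of the transport and esterification members was called in the diet comparison by edgeR, and 2 of these 7 had an unadjusted p under 0.05, Stard4 and Soat2, against 15.0% of all tested genes. DESeq2 called Stard4. Stard4, a carrier that moves cholesterol between membranes, measured 54.4, 48.4 and 46.2 CPM in HFD livers and 99.1, 102 and 56.4 CPM in chow livers, without overlap (log2 fold change -0.79 ± 0.22, edgeR adjusted p = 0.117). Soat2, the sterol acyltransferase of hepatocytes, had 42.6, 45.8 and 34.2 CPM in HFD livers and 46.3, 56.4 and 58.2 CPM in chow livers, also without overlap (log2 fold change -0.39 ± 0.15, edgeR adjusted p = 0.269). Npc1 and Npc2, which export cholesterol from lysosomes, were at log2 fold changes of 0.00 ± 0.19 and 0.06 ± 0.12. Tmem97, a regulator of NPC1, was at -0.13 ± 0.19, or 0.01 with scaling by library size alone. Mylip, the ubiquitin ligase that marks lipoprotein receptors for degradation, was at -0.31 ± 0.24, and Soat1, the acyltransferase of macrophages and other cells, at 0.19 ± 0.31. For these 5 the HFD and chow libraries overlapped.

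The enzymes moved by library as well as by group. Chow 3 was the lowest chow library for 17 of the 20 enzymes and HFD 2 the lowest HFD library for 16. The mean log2 CPM of the 20 enzymes was 5.11, 4.71 and 5.12 in HFD 1, 2 and 3, against 6.44, 6.21 and 5.45 in chow 1, 2 and 3. Chow 3 therefore stood between the HFD livers and the other chow livers. Without chow 3 the number of members that fell was 16, and without chow 1 it was 7. With chow 2 left out it was 4, with HFD 1 left out 3, and with HFD 2 or HFD 3 left out 2, in each case by edgeR with the same threshold. Over all genes, 361 were called in the full comparison, 375 without chow 3, 681 without chow 1 and 184 without chow 2. Without HFD 1, 2 or 3 the calls over all genes numbered 86, 174 and 132. Mvd and Lss were called in each of these 6 fits (edgeR adjusted p up to 0.0204 and 0.0423). Fdps was not called without HFD 2 or HFD 3, Fdft1 without any of the HFD libraries, and Mvk, Pmvk and Insig1 without chow 2 or any HFD library. Sqle was called only in the fit without chow 3. The median log2 fold change of the members ranged from -1.02 to -0.67 in these fits.

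Other genes differed between these groups too. From a list of 9 genes of cycling cells, 4 rose in HFD livers, against 1.6% of all tested genes. The 9 genes summed to 415 to 582 CPM in HFD libraries and 71.0 to 193 CPM in chow libraries, where chow 3 was lowest. From a list of 13 circadian clock genes, 5 fell in HFD livers, against 0.718% of all tested genes. Levels of Dbp, an output factor of the clock, were 6.21-fold lower (log2 fold change -2.64 ± 0.32, edgeR adjusted p = 0.00576). Per3, a member of the clock's repressor arm, was at -2.72 ± 0.35 (edgeR adjusted p = 0.00983). The hour of day at sampling is not given in the sources used here. Hepatocyte markers, 5 genes such as Alb, summed to 62499.8 to 69695.7 CPM in HFD livers and 57997.9 to 74260.5 CPM in chow livers, and 0 of the 5 were called. The part of proliferation, clock phase or cell makeup in the sterol result was not tested, and in bulk tissue fewer cells of a type cannot be told apart from less RNA per cell.

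The inhibitor comparison addressed what SSO given before surgery does to the regenerating liver. Sterol synthesis transcripts were higher in SSO than in vehicle libraries, with the calls spread from the first enzyme to the last. Of the 31 members, 6 rose and 0 fell by edgeR's quasi-likelihood test (adjusted p under 0.05, Benjamini-Hochberg over 15788 genes), against 0.45% of all tested genes called and 0.317% called as higher. Those that rose were Acat2, Pmvk, Mvd, Lss, Nsdhl and Dhcr7. The median log2 fold change was 0.70 over the members and -0.04 over all tested genes, and 25 of the 31 lay above 0. In 17 members every SSO library lay above every vehicle library, an order that 6.14% of all tested genes showed, and in 0 members did every SSO library lie below, against 5.62% of all tested genes.

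Among the early enzymes, Acat2 (ENSMUSG00000023832, chr17:12942890-12960747, minus strand, GRCm38) measured 141, 179, 156 and 177 CPM in SSO libraries and 54.0, 81.1, 58.6 and 87.5 CPM in vehicle libraries, a log2 fold change of 1.22 ± 0.20 (edgeR adjusted p = 0.0369). Pmvk measured 43.5, 91.1, 56.2 and 71.3 CPM in SSO libraries and 30.1, 27.0, 21.5 and 23.9 CPM in vehicle libraries (log2 fold change 1.36 ± 0.22, edgeR adjusted p = 0.0372). Mvd measured 95.7, 139, 107 and 119 CPM in SSO libraries and 52.9, 42.5, 50.9 and 53.2 CPM in vehicle libraries. Both enzymes were higher in each of the 4 SSO libraries, with SSO 2 the highest. The log2 fold change of Mvd was 1.21 ± 0.17 (edgeR adjusted p = 0.0196), or 2.31-fold higher.

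Hmgcs1 and Fdps were also higher in every SSO library without passing the test. Hmgcs1 had 607, 519, 605 and 788 CPM in SSO libraries and 300.0, 457, 340.3 and 358 CPM in vehicle libraries (log2 fold change 0.79 ± 0.22, edgeR adjusted p = 0.112). Fdps had 16.3, 43.0, 18.2 and 26.5 CPM in SSO libraries and 10.4, 9.44, 12.7 and 10.0 CPM in vehicle libraries, so that the vehicle libraries were close together and SSO 2 stood above the other SSO libraries (log2 fold change 1.29 ± 0.29, edgeR adjusted p = 0.0899). Mvk and Idi1 overlapped between the groups. Mvk had 41.8, 47.2, 51.1 and 45.5 CPM in SSO libraries and 50.1, 18.2, 43.4 and 39.8 CPM in vehicle libraries. Idi1 had 19.0, 26.8, 28.3 and 29.4 CPM in SSO libraries and 57.1, 9.49, 17.7 and 30.8 CPM in vehicle libraries, with vehicle 1 the highest and vehicle 2 the lowest of all 8. For Idi1 the log2 fold change was -0.15 ± 0.46, the one early enzyme below 0, and it turned to 0.35 without vehicle 1 and vehicle 3. Ggps1 stood at 0.36 ± 0.26.

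In the step to lanosterol, Lss rose and the other two were higher in every SSO library. Lss measured 170.2, 239, 149 and 210.4 CPM in SSO libraries and 103, 60.2, 89.7 and 72.0 CPM in vehicle libraries, a log2 fold change of 1.24 ± 0.22 (edgeR adjusted p = 0.0459). Fdft1 measured 223, 227, 240.3 and 256 CPM in SSO libraries and 114, 113, 106 and 161 CPM in vehicle libraries (log2 fold change 0.94 ± 0.18, edgeR adjusted p = 0.0648). Sqle measured 123, 134, 139.7 and 146 CPM in SSO libraries and 111, 43.3, 73.3 and 80.5 CPM in vehicle libraries (log2 fold change 0.81 ± 0.25, edgeR adjusted p = 0.131). The SSO libraries were close to each other for Fdft1 and Sqle, and vehicle 4 for Fdft1 and vehicle 1 for Sqle came nearest to them.

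Of the 9 late enzymes, 2 rose. Nsdhl (ENSMUSG00000031349, chrX:72918557-72958514, plus strand, GRCm38) had the smallest SE of the called members, with 163, 180.2, 150.3 and 190.0 CPM in SSO libraries and 62.2, 65.0, 66.0 and 66.8 CPM in vehicle libraries. Its log2 fold change was 1.40 ± 0.15 (edgeR adjusted p = 0.0181). Dhcr7 (ENSMUSG00000058454, chr7:143823145-143848410, plus strand, GRCm38) had 146, 176, 159 and 153 CPM in SSO libraries and 88.3, 85.1, 68.3 and 91.2 CPM in vehicle libraries (log2 fold change 0.93 ± 0.16, edgeR adjusted p = 0.0396). Nsdhl and Dhcr7 were not called by edgeR in the diet comparison, where DESeq2 did call Nsdhl. Another 4 late enzymes, Tm7sf2, Msmo1, Hsd17b7 and Sc5d, were higher in every SSO library but not called by edgeR. Their log2 fold changes were 0.97 ± 0.25, 0.86 ± 0.21, 0.40 ± 0.16 and 1.04 ± 0.33. Sc5d was again nearly equal within the treated group, at 817, 803, 821 and 821 CPM in SSO libraries, and spread within the controls, at 262, 682, 224 and 416 CPM in vehicle libraries. Cyp51, Ebp and Lbr overlapped between the groups, at 0.52 ± 0.22, 0.29 ± 0.25 and -0.39 ± 0.31. Without vehicle 1 and vehicle 3, Ebp and Lbr changed sign, to -0.08 and 0.25, and Sc5d stood at 0.58.

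None of the 4 members around SREBP2 was called by edgeR in the inhibitor comparison, and 2 of them, Scap and Insig1, had an unadjusted p under 0.05, as did 20.5% of all tested genes. Insig1 had 561, 718, 571 and 719.7 CPM in SSO libraries and 272, 475, 227 and 368 CPM in vehicle libraries, with no overlap (log2 fold change 0.94 ± 0.26, edgeR adjusted p = 0.111). Scap had 123, 181, 123 and 126 CPM in SSO libraries and 89.0, 97.2, 60.2 and 94.5 CPM in vehicle libraries (log2 fold change 0.70 ± 0.21, edgeR adjusted p = 0.126). Srebf2 overlapped, with 71.9, 87.9, 71.9 and 80.2 CPM in SSO libraries and 86.1, 54.4, 62.7 and 82.5 CPM in vehicle libraries. Its log2 fold change was 0.13 ± 0.18, or -0.05 with scaling by library size alone. That of Insig2 was 0.04 ± 0.23, or -0.07 with that scaling and -0.28 without vehicle 1 and vehicle 3.

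Soat1 and Npc2 spread widely among the vehicle libraries. Soat1 measured 3.86, 4.62, 4.03 and 4.76 CPM in SSO libraries and 25.5, 1.63, 30.1 and 4.01 CPM in vehicle libraries, so that vehicle 1 and vehicle 3 stood far above the other 6 libraries. Npc2 measured 53.2, 52.9, 55.1 and 60.7 CPM in SSO libraries and 137, 55.3, 118 and 64.1 CPM in vehicle libraries, with vehicle 1 and vehicle 3 again highest. Their log2 fold changes were -1.83 ± 0.78 and -0.75 ± 0.27 (edgeR adjusted p = 0.230 and 0.168). Without vehicle 1 and vehicle 3 the value of Soat1 was 0.60 and that of Npc2 -0.11. A set of 8 macrophage and monocyte genes, chosen after these values were seen (Cd68, Lyz2, Csf1r, Adgre1, Itgam, Ccr2, Gpnmb and Trem2), summed to 60.9 to 86.2 CPM in SSO libraries, and to 548, 57.4, 565 and 120.3 CPM in vehicle 1, 2, 3 and 4. All 8 lay below 0 and 0 were called by edgeR, with 5 at an unadjusted p under 0.05 (20.5% of all tested genes). The 4 Kupffer cell markers summed to 140.4 to 242 CPM in SSO libraries and to 76.4 to 317 CPM in vehicle libraries, with 0 called. Other marker lists also had their upper vehicle values in vehicle 1 and vehicle 3. In vehicle 1, 2, 3 and 4, stellate cell markers summed to 384, 104, 346 and 168 CPM. Cholangiocyte markers summed to 121, 42.0, 154 and 36.2 CPM, and neutrophil markers to 12.3, 0.908, 16.5 and 0.377 CPM. The Kupffer, sinusoidal endothelial and cycling cell lists had the same upper libraries, while the hepatocyte, erythroid, and T and B cell lists did not. The part of any of these cells in the values of Soat1 and Npc2 was not tested.

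Soat2, the hepatocyte enzyme, lay above 0. It measured 98.7, 141, 84.4 and 117 CPM in SSO libraries and 44.7, 63.9, 39.9 and 77.7 CPM in vehicle libraries, without overlap (log2 fold change 0.96 ± 0.24, edgeR adjusted p = 0.109). Tmem97 had a log2 fold change of 0.66 ± 0.21 and Stard4 of 0.39 ± 0.21, or 0.06 without vehicle 1 and vehicle 3. Both overlapped between the groups, with vehicle 4 inside the SSO range. Npc1 stood at -0.02 ± 0.17, and Mylip at -0.48 ± 0.46, or at 0.39 without vehicle 1 and vehicle 3.

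**Figure D3:**
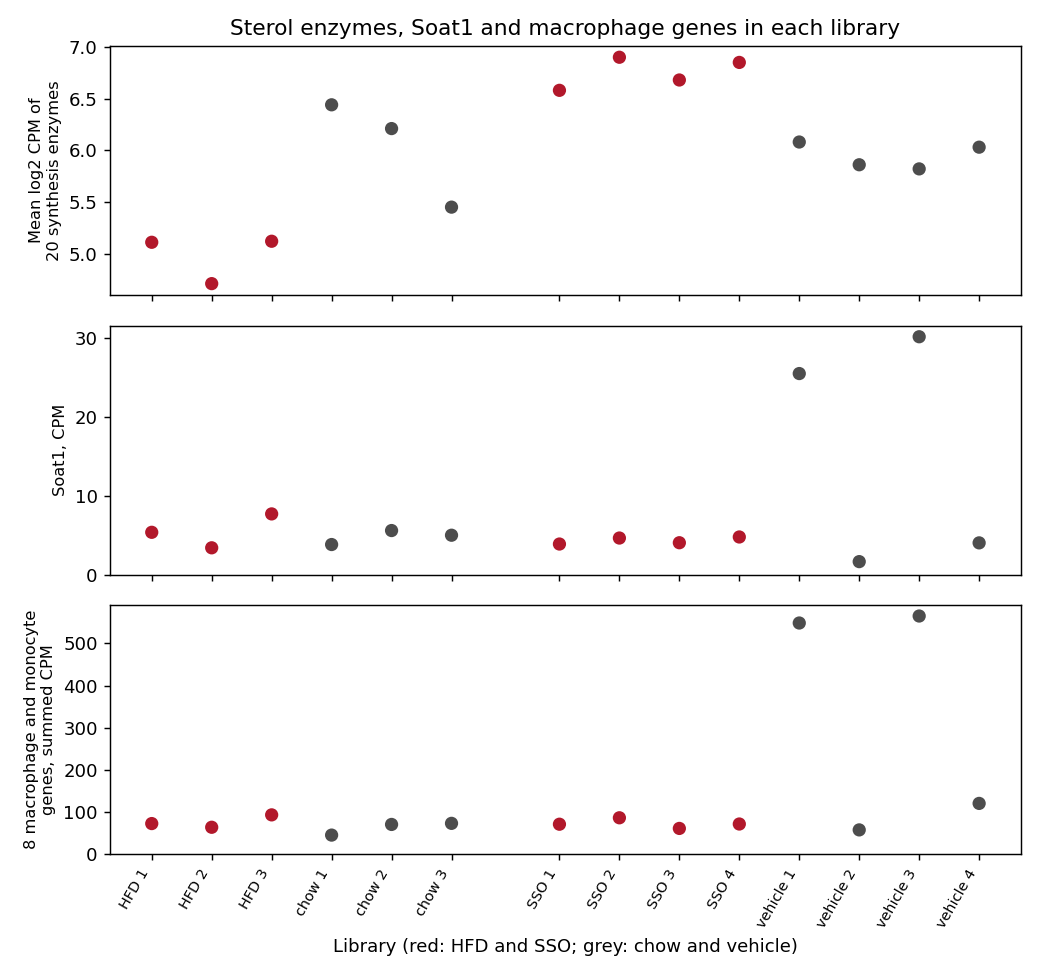
Per library, from top to bottom: mean log2 CPM of the 20 synthesis enzymes, CPM of Soat1, and summed CPM of 8 macrophage and monocyte genes; red points are HFD and SSO libraries, grey points chow and vehicle libraries. The enzyme mean lies at 6.58 to 6.90 in SSO and 5.82 to 6.08 in vehicle libraries, and the upper values of Soat1 and of the macrophage sum both fall in vehicle 1 and vehicle 3.

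The inhibitor calls depended on single libraries. By edgeR, 0 members were called without vehicle 1 and 0 without any single SSO library, 1 (Nsdhl) without vehicle 3, 10 without vehicle 4, and 18 without vehicle 2, of which 16 were higher and 2, Npc2 and Soat1, lower. Over all genes the counts moved in the same way, with 0 calls without vehicle 1 or any SSO library. They numbered 16 of 16142 without vehicle 3, 364 of 16286 without vehicle 4 and 2646 of 16339 without vehicle 2. DESeq2 called 16 members in the full comparison, all higher, and 1186 of all 15788 tested genes, against 71 by edgeR. Log2 fold changes of the members called in the full comparison stayed above 0 over the 8 fits. They lay between 1.11 and 1.29 for Mvd, 1.34 and 1.45 for Nsdhl, and 0.85 and 0.99 for Dhcr7. The ranges were 1.11 to 1.35 for Acat2, 1.12 to 1.38 for Lss and 1.16 to 1.51 for Pmvk. With vehicle 1 and vehicle 3 both left out, 4 members were called, all higher: Acat2, Mvd, Lss and Nsdhl (edgeR adjusted p = 0.0467, 0.0240, 0.0159 and 0.00749). In that fit 62 of all 16692 tested genes were called. The 9 genes of cycling cells summed to 75.3 to 94.4 CPM in SSO and 96.9 to 436 CPM in vehicle libraries. Of the 9, 1 (Cdk1) was called lower, against 0.133% of all tested genes. The part of these 9 genes in the sterol result was not tested. The mean log2 CPM of the 20 enzymes was 6.58, 6.90, 6.68 and 6.85 in the SSO libraries and 6.08, 5.86, 5.82 and 6.03 in the vehicle libraries.

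**Figure D4:**
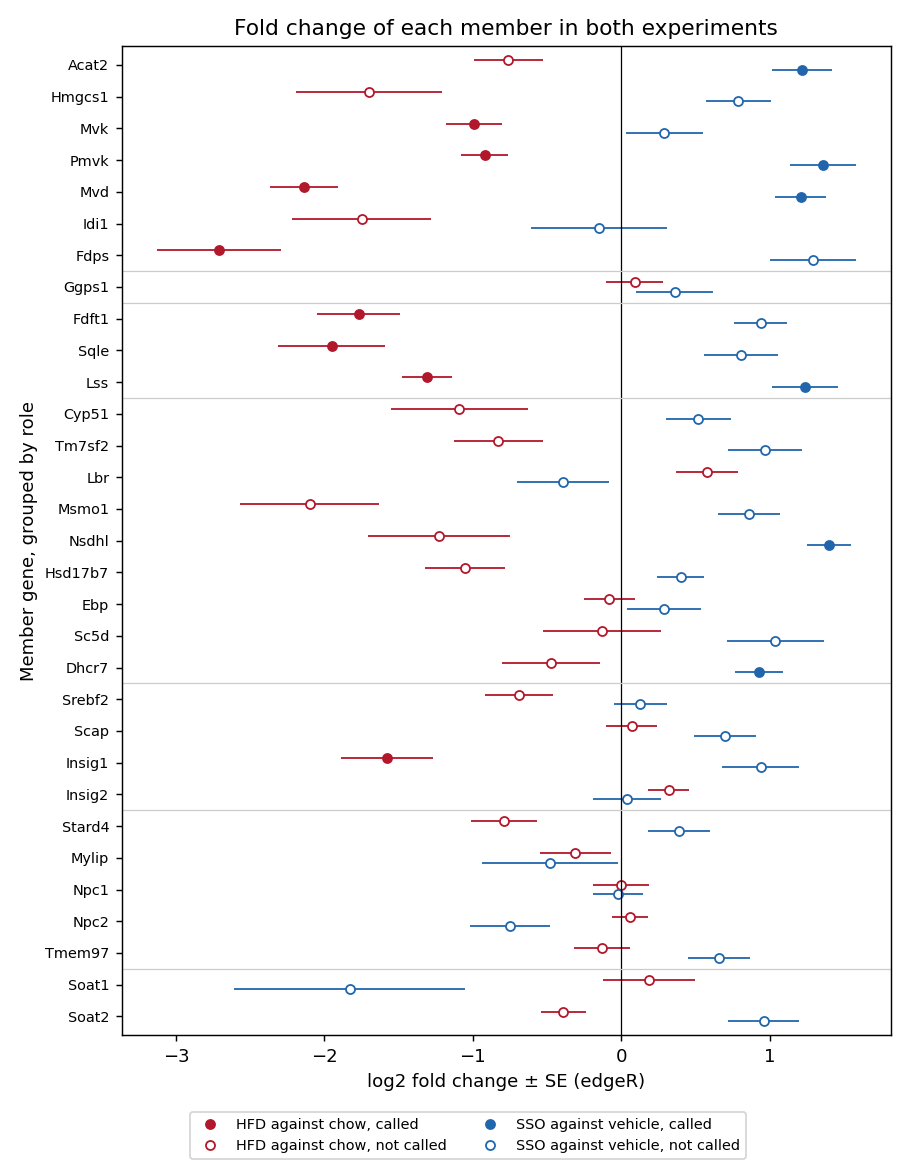
Log2 fold change with its SE (edgeR) of each member, for HFD against chow in red and SSO against vehicle in blue. Filled circles passed an adjusted p of 0.05, and horizontal lines separate the roles. Fdps marks the left end of the HFD values at -2.71 and Nsdhl the right end of the SSO values at 1.40; Soat1 is the member farthest below 0 in SSO libraries, at -1.83.

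The diet and inhibitor effects were then set against each other in a joint fit of all 14 libraries, as the log2 fold change of HFD against chow minus that of SSO against vehicle. The experiments share no library, and they differ in treatment, time after surgery and the transcripts named above, so the test sets 2 effects side by side and does not compare 1 treatment across settings. By edgeR's quasi-likelihood test 15 of the 31 members differed, all of them lower in the diet effect, while 3.63% of 17281 genes were called, 1.45% as lower and 2.18% as higher. That background of 628 genes moved between 319 (without HFD 1) and 2513 (without vehicle 2) when 1 library was left out, and DESeq2 called 1514. The median difference was -1.41 over the members and 0.00 over all genes. By role, the calls covered 5 of 7 early enzymes, 3 of 3 from squalene synthase to lanosterol, 5 of 9 late enzymes, Insig1 and Soat2.

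The difference was largest for Fdps at -4.01 ± 0.54 (edgeR adjusted p = 0.000690) and had the smallest p for Mvd at -3.36 ± 0.28 (edgeR adjusted p = 1.74e-05). Hmgcs1 and Msmo1, called by edgeR in neither experiment alone, differed by -2.50 ± 0.48 and -2.98 ± 0.47 (edgeR adjusted p = 0.00881 and 0.00213). Insig1 differed by -2.53 ± 0.42 (edgeR adjusted p = 0.00297). For these 5 genes the HFD libraries lay below the chow libraries and the SSO libraries above the vehicle libraries without exception. Srebf2 was not called, at -0.83 ± 0.30 (edgeR adjusted p = 0.140), nor was Ebp, at -0.38 ± 0.33 (edgeR adjusted p = 0.547).

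With each of the 14 libraries left out in turn, 11 to 21 members were called. The highest number came without vehicle 2, where 18 were lower and 3, Lbr, Npc2 and Soat1, higher in the diet effect. In the other 13 fits every call was lower. The call held in all 14 fits for 11 genes: Acat2, Hmgcs1, Pmvk, Mvd, Fdps, Fdft1, Sqle, Lss, Msmo1, Nsdhl and Insig1. Tm7sf2, Hsd17b7, Dhcr7 and Soat2 each lost it in some, Hsd17b7 only without chow 2 or HFD 1 (edgeR adjusted p up to 0.0519). With vehicle 1 and vehicle 3 both left out 12 members were called, Hmgcs1 no longer among them (edgeR adjusted p = 0.0668). Over all genes 419 of 17736 were called in that fit.

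Across the members, 22 of 31 (71.0%) lay below 0 in HFD and above 0 in SSO livers, against 28.9% of the 14905 genes tested in both experiments. Among the enzymes it was 17 of 20 (85.0%). The exceptions were Idi1, below 0 in both, Ggps1, above 0 in both, and Lbr, above 0 in HFD and below 0 in SSO livers. Across the 31 genes the log2 fold changes had a Pearson correlation of -0.54 (Spearman -0.56), and across the 14905 genes of -0.31 (Spearman -0.27). The points of one axis share the same libraries and are not independent, so these are descriptions. Exactly 3 of the 14905 genes fell in HFD livers and rose in SSO livers, each with its own edgeR call. They were Pmvk, Mvd and Lss, all of them members. The SSO call of each was lost without vehicle 1, vehicle 3 or any single SSO library. The HFD call of Pmvk was lost without chow 2 or any single HFD library.

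**Figure D5:**
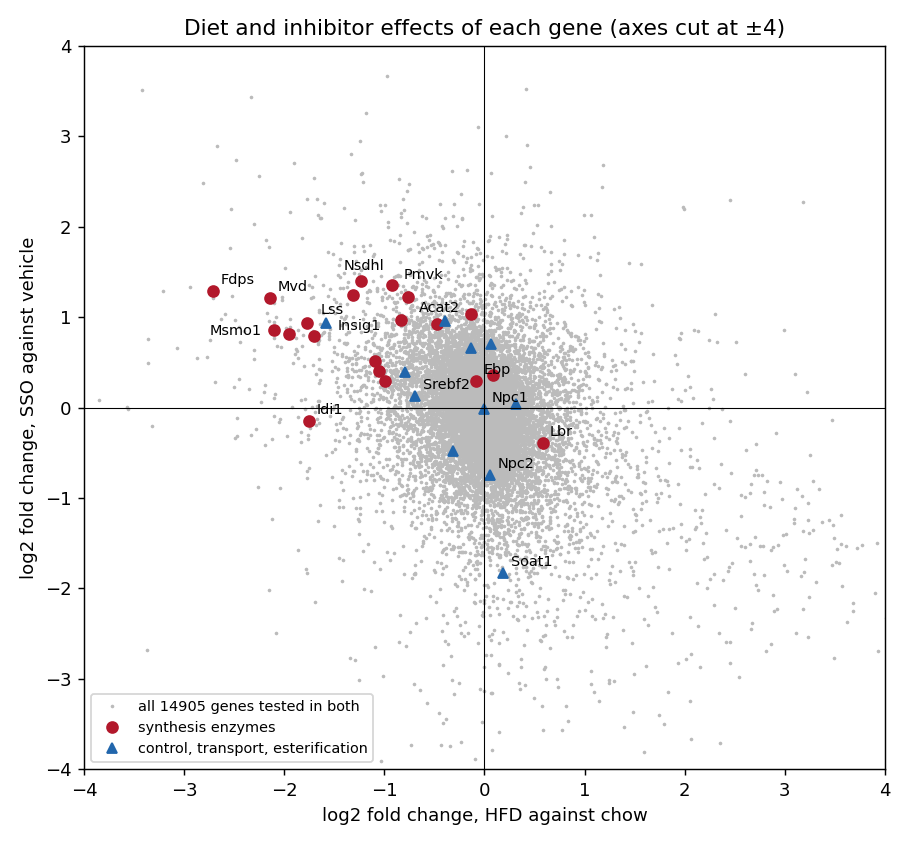
Log2 fold change of HFD against chow (horizontal) and of SSO against vehicle (vertical) for the 14905 genes tested in both experiments (grey), with synthesis enzymes as red circles and control, transport and esterification genes as blue triangles. Axes end at 4 in each direction, which leaves out 32 genes; 22 of 31 members lie in the upper left part of the plot.

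Per length, the members covered a wide range of levels. In RPKM (counts per kilobase of union exon length, scaled by library size as for CPM), the chow livers held most of Insig1, at 96.3 ± 36.3, Ebp, at 96.2 ± 19.2, and Hmgcs1, at 77.7 ± 43.4, which did not differ beyond their spread. Tmem97, at 75.4 ± 18.4, and Sc5d, at 69.2 ± 40.8, were not apart from Hmgcs1 beyond their spread either. Least abundant in chow livers was Soat1, at 0.489 ± 0.0922, followed by Ggps1, at 1.96 ± 0.320 RPKM. Ggps1 was not apart beyond their spread from Mylip, at 2.00 ± 0.528, Lbr, at 2.37 ± 0.654, or Fdps, at 3.07 ± 1.62 RPKM. In HFD livers the highest levels were those of Ebp, at 91.1 ± 2.36, Insig2, at 74.8 ± 5.25, and Tmem97, at 68.8 ± 4.60 RPKM. The order of the INSIG genes was reversed between the diets: HFD livers had 32.1 ± 9.20 RPKM of Insig1 and 74.8 ± 5.25 of Insig2, while chow livers had 96.3 ± 36.3 and 60.1 ± 5.64 RPKM. In SSO libraries Insig1 was the most abundant member, at 208 ± 28.5 RPKM, followed by Sc5d, at 168 ± 1.71, and Hmgcs1, at 137 ± 24.6, against 108 ± 35.5, 81.4 ± 42.7 and 79.2 ± 14.5 RPKM in vehicle libraries. Errors here are SD over 3 diet or 4 inhibitor libraries. Of the members, 6 share between 10.7% and 26.7% of their exon length with another gene (Fdps, Fdft1, Scap, Hmgcs1, Tm7sf2 and Lbr), which makes their levels uncertain.

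Neighbouring pathways were read from lists set beside the members. The non-sterol isoprenoid branches were a list of 12 genes, mostly of ubiquinone, dolichol and prenylation, such as Pdss1 and Fnta. These genes had 0 calls in either comparison or in the difference between the effects (edgeR). At an unadjusted p under 0.05 were 0 of 12 in the diet and 4 of 12 in the inhibitor comparison (15.0% and 20.5% of all tested genes). Their median log2 fold change was 0.03 in HFD and -0.26 in SSO livers. The 12 genes of SREBP cleavage and sterol-dependent degradation had 0 calls in both comparisons (1 and 4 at an unadjusted p under 0.05, against the same 15.0% and 20.5%). In the difference 1 was called higher, against 2.18% of all genes. It was Erlin2, an endoplasmic reticulum protein of sterol-regulated degradation, at 0.76 ± 0.16 (edgeR adjusted p = 0.0139), a call lost without HFD 2. Of 12 genes under LXR or of sterol efflux, 0 were called in the diet comparison (2 at an unadjusted p under 0.05, against 15.0% of all tested genes). In the inhibitor comparison 1 was called higher, against 0.317% of all tested genes. That one was Pltp, the phospholipid transfer protein, with 24.4, 44.1, 29.6 and 27.3 CPM in SSO libraries and 14.6, 15.0, 11.2 and 14.6 CPM in vehicle libraries (log2 fold change 1.18 ± 0.21, edgeR adjusted p = 0.0416), a call lost without vehicle 1, vehicle 3 or any SSO library. Of 6 tested genes of oxysterol and bile acid synthesis, 1 fell in HFD livers, against 0.718% of all tested genes. It was Cyp7a1, which starts bile acid synthesis, at -1.89 ± 0.26 (edgeR adjusted p = 0.0100), a call lost without HFD 1. In SSO libraries 0 of the 6 were called, with 2 at an unadjusted p under 0.05 (20.5% of all tested genes).

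Fatty acid synthesis, whose genes answer to SREBP1, was read from a list of 13 genes. Of these, 5 rose in SSO libraries, against 0.317% of all tested genes: Gpam, Acly, Acss2, Fasn and Elovl6. In HFD livers 0 of the 13 were called, with 4 at an unadjusted p under 0.05 (15.0% of all tested genes), and the median log2 fold changes were 1.85 in SSO and -0.68 in HFD livers. Acly, which makes cytosolic acetyl-CoA from citrate, measured 678, 760.2, 656 and 614 CPM in SSO libraries and 179, 239, 115 and 219 CPM in vehicle libraries (log2 fold change 1.85 ± 0.25, edgeR adjusted p = 0.0196). It stood at 109, 87.3 and 75.6 CPM in HFD livers and 187, 111 and 101 CPM in chow livers, where chow 1 was the highest and HFD 1 exceeded chow 3. Acss2, which makes acetyl-CoA from acetate, measured 556, 745, 535 and 593 CPM in SSO libraries and 74.4, 185, 53.8 and 118 CPM in vehicle libraries (log2 fold change 2.49 ± 0.36, edgeR adjusted p = 0.0269). In the joint fit 9 of the 13 were called lower in the diet effect, against 1.45% of all genes. For the 5 genes that rose in SSO libraries, the joint call held in all 14 fits with 1 library left out, while the call against vehicle was lost for each of them without vehicle 1 or any single SSO library.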

How the data were processed

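The authors deposited 2 tables of raw counts, whole numbers of reads for each Ensembl gene. Tools listed in the submitters' processing notes are featureCounts 2.0.2, HISAT2 2.2.1, Trim Galore 0.6.1 and DESeq2, with the build GRCm38 (mm10). The strand setting, the treatment of reads with several matches and the annotation release were not given in the sources used here. Libraries were selected with polyT, per the labels' protocols. Each group has 1 record in the labels, whose replicate number equals the group's column count, and its columns were taken as separate libraries. Columns named C stand for chow in the diet table and for vehicle in the inhibitor table. Symbols, coordinates (1-based) and exon lengths came from GENCODE M21, which named 55227 of 55487 identifiers, and promoter windows from RefSeq.

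Each table was fitted with edgeR 4.0.16 in R 4.3.3 (quasi-likelihood test, robust spread, TMM scaling, filterByExpr), with Benjamini-Hochberg adjustment over all tested genes and calls at an adjusted p under 0.05. CPM use TMM-scaled library sizes. Levels carry the SD over libraries, and log2 fold changes the SE from the fit. A joint fit of all 14 libraries with 4 group means tested the difference between the effects. DESeq2 1.42.0, limma 3.58.1 (voom), other scalings and filters, a replicate block and fits without single libraries were alternatives, and the procedure was tested on simulated counts. A count of 0 allows up to 3 counts, or 0.0752 to 0.119 CPM, and this floor covers counting error only. All pairs of libraries within a group differed by more than counting noise. The named genes are all 31 members, plus up to 3 called genes of each other list; where more or others are named, this followed their values. The members and lists were chosen with earlier results of these data known. The single-cell data and the macrophage table were not used here.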

Additional observations from a re-analysis of the deposited data

Results flagged for a closer look

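In groups of 4 libraries, the gap between the highest or lowest library and its nearest neighbour was set against the range of the group (Dixon's criterion at 95%). Of 62 member and group pairs in the inhibitor experiment 3 passed it, and chance alone passes about 1 in 20. Scap, the escort of SREBP2, had 181 CPM in SSO 2, above 123 to 126 CPM in the other SSO libraries. Cyp51, the lanosterol demethylase, had 134 CPM in SSO 1, below 165 to 167 CPM in the other SSO libraries. Fdft1, squalene synthase, had 161 CPM in vehicle 4, above 106 to 114 CPM in the other vehicle libraries.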

How the results depend on the processing

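Scaling by library size alone moved the median log2 fold change of all genes to 0.13 in the diet comparison, -0.20 in the inhibitor comparison and 0.33 in their difference, from -0.02, -0.04 and 0.00. Under it 4 members were called for HFD and 2 for SSO, with 396 genes in all for HFD and 37 for SSO. DESeq2 called 15 members and 926 genes for HFD, and 16 members and 1186 genes for SSO. Without a filter on low counts 672 genes were called for HFD and 205 for SSO. In the fit of all 14 libraries 200 genes were called for HFD, and 11 members and 852 genes for SSO. The column numbers did not pair libraries (correlations of same-numbered libraries between -0.106 and 0.0308); with a replicate block 4 members and 206 genes were called for HFD, and 2 members and 47 genes for SSO. The other settings kept these counts within 1.5 times, as did all settings for the members called in the difference.

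With 1 library left out, 2 to 16 members and 86 to 681 genes were called for HFD, 0 to 18 members and 0 to 2646 genes for SSO, and 11 to 21 members for the difference, and the members' median log2 fold change ran from -1.02 to -0.67 and from 0.57 to 0.80.

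Several members changed sign. For HFD, scaling by library size gave Ebp 0.07 and Tmem97 0.01, Npc1 was at -0.00133 with a mean CPM of at least 1 and -0.01 in the joint fit, and Sc5d at 0.06 by voom and 0.05 with the replicate block. For SSO, scaling by library size gave Srebf2 -0.05 and Insig2 -0.07, Idi1 was at 0.09 by voom and 0.14 with the block, and Npc1 at 0.01 in both. Without vehicle 1 and vehicle 3, SSO values were 0.35 for Idi1, 0.25 for Lbr, -0.08 for Ebp, -0.28 for Insig2, 0.39 for Mylip and 0.60 for Soat1, with the same sign as before 0.67 for Mvk, 0.19 for Ggps1, 0.86 for Cyp51, 0.64 for Tm7sf2 and 0.61 for Insig1, and differences 0.02 for Ebp, -0.67 for Mylip and -0.39 for Soat1. The difference for Npc1 was -0.02 with a mean CPM of at least 1. With 1 library left out, values spanned 0 for HFD in Ggps1 (-0.05 to 0.23), Ebp (-0.18 to 0.10), Sc5d (-0.48 to 0.42), Scap (-0.05 to 0.25), Npc1 (-0.12 to 0.26), Npc2 (-0.02 to 0.12), Tmem97 (-0.32 to 0.02) and Soat1 (-0.13 to 0.45), for SSO in Idi1 (-0.44 to 0.41), Insig2 (-0.12 to 0.21) and Npc1 (-0.12 to 0.08), and for the difference in Mylip (-0.16 to 0.49) and Npc1 (-0.12 to 0.31). The cause was not tested for any of these. The lowest group mean of a member was 1.96 CPM, above the 0.119 CPM that a count of 0 allows at most. The joint fits without 1 library were chosen after seeing the data.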

Other observations

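Clock genes also differed between the experiments. Of 13, 5 fell in HFD livers, against 0.718% of all tested genes. In SSO libraries 0 were called, with 5 at an unadjusted p under 0.05 (20.5% of all tested genes). In the joint fit 6 differed by edgeR's quasi-likelihood test, all lower in the diet effect, against 1.45% of all genes. Ciart, a repressor of the clock, stood at a log2 fold change of -4.27 ± 0.66 in HFD livers (edgeR adjusted p = 0.0207) and 1.29 ± 0.48 in SSO libraries (edgeR adjusted p = 0.181). Of the 5 diet calls, that of Dbp held in all 6 fits with 1 library left out, that of Per3 in 5 (lost without HFD 1), and those of Ciart, Tef and Cry2 in 2 each. Of the 6 joint calls, those of Per2, Per3, Cry2 and Ciart held in all 14 such fits, that of Tef in 5 and that of Dbp in 2. Of 9 genes of cycling cells, 4 rose in HFD livers and 1 (Cdk1) fell in SSO libraries, against 1.6% and 0.133% of all tested genes. In the joint fit 6 were higher in the diet effect, against 2.18% of all genes. Log2 fold changes for Cdk1 were 2.92 ± 0.41 in HFD livers and -2.23 ± 0.38 in SSO libraries (edgeR adjusted p = 0.0206 and 0.0396). Cdk1 measured 5.57, 2.11, 3.10 and 2.97 CPM in SSO libraries and 13.8, 8.22, 23.2 and 19.1 CPM in vehicle libraries. The Cdk1 call in SSO libraries was lost without vehicle 1, vehicle 3 or any SSO library, and that in HFD livers without chow 2 or HFD 1. The call of Cdk1 in the difference held in all 14 fits. Whether these patterns bear on the sterol genes was not tested.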
